A study of Mus musculus with 36 samples.

Results

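β-Hydroxybutyrylation of lysine 12 on histone H4 (H4K12bhb) was compared with acetylation of lysine 27 on histone H3 (H3K27ac) in small intestinal crypts of mice deprived of food. The comparison used the peak lists labelled with these 2 marks from fasted pools 2 and 5, which are 4 of the 36 samples of the series. In each pool the peaks of both marks were merged where they overlapped, which gave 38304 regions in pool 2 and 36485 in pool 5. Regions were called shared where a peak of each mark contributed, and single-mark otherwise, with an overlap of 1 bp or more taken as contact.

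The mice were C57BL/6J animals and carriers of Lgr5EGFP-IRES-CreERT2, a knock-in reporter of intestinal stem cells, and all 4 samples are labelled wildtype. They were 6 to 12 weeks old with males and females pooled, and the labels do not say which strain went into which pool. Fasted animals had water but no food for 24 h, and fed animals, whose pools 1 and 4 were set beside the fasted ones, ate freely. Crypts of 4 animals made up a pool, so a replicate is a pool, and whole crypts with all their cell types were used. Trichostatin A, an inhibitor of histone deacetylases, was in the buffers of crypt isolation at 100 nM for fasted and fed mice alike, and chromatin was sheared to 250 to 500 bp. Every list was called against the input of its own pool. Gene annotation on the build of the files (mm9) was not used here, so regions are named by position, no tissue marker was checked, and no sequence is shown.

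β-Hydroxybutyrate is a ketone body that the liver releases into blood during fasting and that crypt cells can also make. Its acyl group can be attached to histone lysines by acyltransferases, among them p300 in cultured cells, which also acetylates H3K27, and class I histone deacetylases can remove both groups. H3K27ac lies on active promoters and enhancers, H3K4me3 on promoters, H3K4me1 on enhancers and H3K79me2 on the transcribed part of genes downstream of the start. H3K27me3 is laid down by Polycomb complexes, and H3K9me3 is typical of heterochromatin. Overlap of peaks places 2 marks on the same stretch of chromatin in a pool of cells and does not place them on the same nucleosome. In such pools, fewer cells that carry a mark and less of the mark per cell cannot be told apart.

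Fewer H4K12bhb than H3K27ac peaks were listed in both fasted pools. H4K12bhb had 26252 peaks in pool 2 and 20031 in pool 5, against 37974 and 35917 H3K27ac peaks in the same pools. The means were 23142 ± 4399 H4K12bhb and 36946 ± 1455 H3K27ac peaks (SD, n = 2 each), a ratio of 0.63, and the 2 marks did not overlap. H4K12bhb peaks covered 68.8 and 40.6 Mb in pools 2 and 5, against 99.2 and 109 Mb for H3K27ac, a ratio of means of 0.53. The ratio of covered lengths was 0.69 in pool 2 and 0.37 in pool 5. For number and length alike the two-sided exact permutation p was 0.333, the smallest that 2 pools against 2 allow. Median peak width was 1715 and 1444 bp for H4K12bhb and 1709 and 2077 bp for H3K27ac in pools 2 and 5, a ratio of means of 0.83 (exact permutation p = 0.667). The medians of pool 2 were nearly equal only over the full lists. With equal numbers of top-scoring peaks of both marks the ratio was 0.72 in pool 2, 0.43 in pool 5 and 0.55 over both (exact permutation p = 0.333). The lists carry no read totals. Depth and antibody yield, which can set the number and width of listed peaks, were therefore unknown, and their part in these differences was not tested. The label of the H4K12bhb antibody gives a catalogue number only, so whether it also binds other acyl groups was not tested either, and H4K12bhb stands for what this antibody precipitated.

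Most H4K12bhb of the fasted pools lay in chromatin that also had an H3K27ac peak, whereas much H3K27ac had no H4K12bhb peak. In pool 2, 86.1% of H4K12bhb peaks (22595 of 26252) touched an H3K27ac peak, and in pool 5, 93.9% did (18800 of 20031). In the other direction, 53.5% of H3K27ac peaks in pool 2 and 35.5% in pool 5 touched H4K12bhb. By length, 84.3% and 93.2% of H4K12bhb base pairs in pools 2 and 5 lay inside H3K27ac, and 58.4% and 34.7% of H3K27ac base pairs lay inside H4K12bhb. In fed pools 1 and 4, 65.0% and 47.7% of H4K12bhb peaks touched H3K27ac, and 64.4% and 56.1% of H3K27ac peaks touched H4K12bhb. H3K27ac peaks covered 48.8 and 21.9 Mb in these fed pools, against 99.2 and 109 Mb in fasted pools 2 and 5. The share of H4K12bhb peaks on H3K27ac moves with that length, whose part in the contrast was not tested. The share of H4K12bhb peaks on H3K27ac was 89.96% ± 5.50 in fasted and 56.3% ± 12.2 in fed pools (SD, n = 2 each), and the 4 pools did not overlap by condition (exact permutation p = 0.333). A number in the file names was 10 for pools 1 and 2 and 11 for pools 4 and 5, so the 2 fasted pools differ in it. The sample labels do not say what it stands for. The difference had the same direction within each number, with 21.1 percentage points for number 10 and 46.1 for number 11. Each of these values is 1 fasted pool against 1 fed pool.

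Counted over merged regions, shared regions numbered 17008 in pool 2 (44.4%) and 12103 in pool 5 (33.2%). H4K12bhb stood alone in 3655 regions of pool 2 (9.54%, Wilson 95% interval 9.25 to 9.84) and 1230 of pool 5 (3.37%, 3.19 to 3.56), where the intervals cover counting error only. H3K27ac stood alone in 17641 regions of pool 2 (46.1%) and 23152 of pool 5 (63.5%). Shared regions were wide, with a median of 3536 and 4376 bp in pools 2 and 5. Regions with H4K12bhb alone had a median of 1090 and 929 bp, and those with H3K27ac alone 1184 and 1489 bp.

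**Figure D1:**
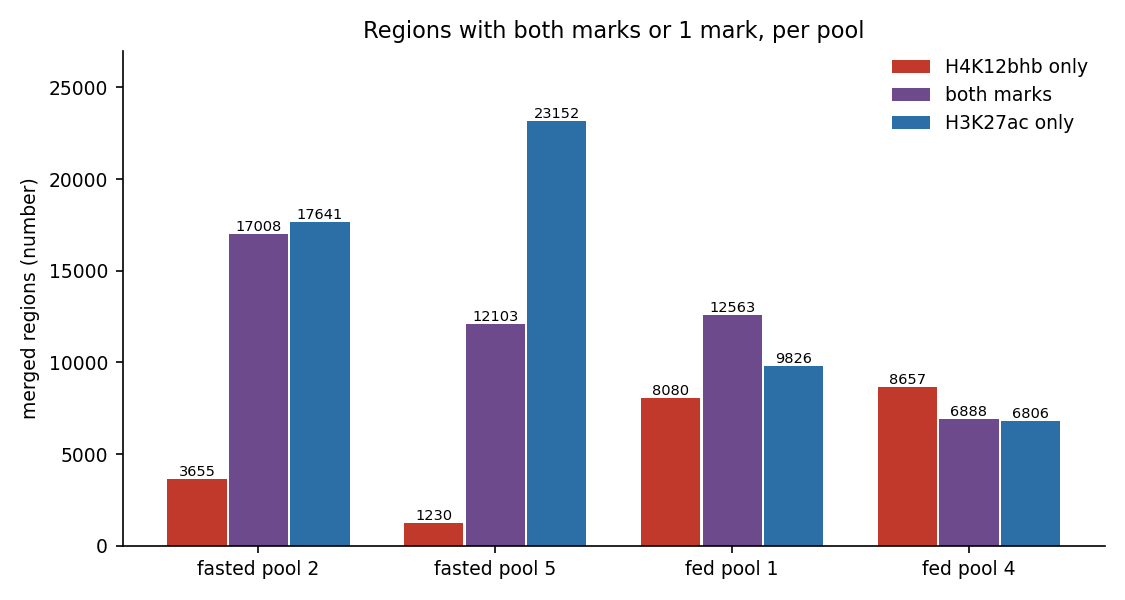
Number of merged regions (y axis) with H4K12bhb alone, with both marks and with H3K27ac alone, in fasted pools 2 and 5 and in fed pools 1 and 4. H4K12bhb alone was the smallest class in both fasted pools, at 3655 and 1230 regions, whereas fed pools had 8080 and 8657 of them. H3K27ac peaks covered 99.2 and 109 Mb in the fasted pools and 48.8 and 21.9 Mb in the fed pools.

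Regions with H4K12bhb alone lay close to H3K27ac. Their median distance to the nearest H3K27ac peak was 1210 bp in pool 2 and 1007 bp in pool 5, and 82.7% and 86.3% of them had such a peak within 5000 bp. Regions with H3K27ac alone were farther from H4K12bhb, at a median of 5687 and 16297 bp, and 47.7% and 28.0% of them had an H4K12bhb peak within 5000 bp. These distances move with list length, since the H3K27ac lists held more peaks.

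Whether a peak met the other mark went with its own score, the peak caller's -10 times log10 of p. Scores were compared only as ranks within a list, and each list was cut into 10 bins of equal size by score, with bin 1 the lowest. In bin 1 of the H4K12bhb lists, 63.0% of peaks in pool 2 and 81.4% in pool 5 touched H3K27ac, and in bin 10 99.3% and 100% did. The H3K27ac lists had a steeper course. Their bin 1 touched H4K12bhb in 17.8% and 5.73% of peaks in pools 2 and 5, and their bin 10 in 99.3% and 98.7%. In bin 5, H3K27ac peaks of pool 5 met H4K12bhb in 14.6% of cases, against 40.5% in pool 2. In the lists the score ran with peak width (Spearman's rho from 0.870 to 0.910 over the peaks of each of the 4 lists), so a high score also meant a wide peak with more room for contact.

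**Figure D2:**
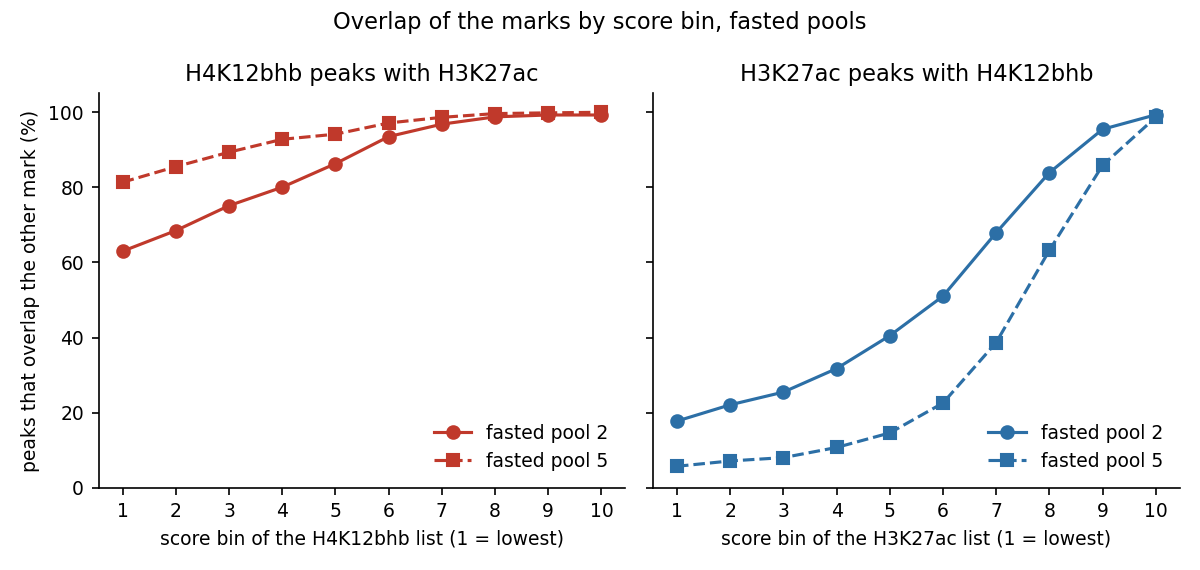
Share of peaks that overlap the other mark by 1 bp or more (y axis, %) over 10 score bins of each list (x axis, bin 1 lowest), with H4K12bhb peaks on the left and H3K27ac peaks on the right. H4K12bhb curves start at 63.0% and 81.4%, whereas H3K27ac curves start at 17.8% and 5.73%, and all 4 end above 98%.

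Inside shared regions the H4K12bhb peak of the fasted pools was usually the narrower one and often lay within the H3K27ac peak. A single peak of each mark formed 11470 of the 17008 shared regions in pool 2 (67.4%) and 7611 of 12103 in pool 5 (62.9%), and these paired regions were used for widths and edges. Where numbers were uneven, H4K12bhb was the more broken mark. Several H4K12bhb peaks lay with 1 H3K27ac peak in 16.1% and 31.9% of shared regions in pools 2 and 5, and 1 H4K12bhb peak lay with several H3K27ac peaks in 7.86% and 1.64%. In fed pools 1 and 4 the first arrangement held 7.74% and 7.17% of shared regions and the second 18.9% and 13.5%.

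In paired regions the median H4K12bhb width was 1836 bp in pool 2 and 1450 bp in pool 5, against 2529 and 3390 bp for H3K27ac. The median of the per-region ratio of H4K12bhb to H3K27ac width was 0.84 in pool 2 and 0.50 in pool 5. It was 1.16 and 1.25 in fed pools 1 and 4. Fasted pools averaged 0.67 ± 0.25 and fed pools 1.21 ± 0.07 (SD, n = 2 each), with fasted below 1 and fed above 1 throughout (exact permutation p = 0.333). The H4K12bhb peak lay wholly inside the H3K27ac peak in 41.1% and 73.8% of paired regions in fasted pools 2 and 5, against 11.3% and 8.75% in fed pools 1 and 4. The reverse nesting, H3K27ac inside H4K12bhb, was seen in 10.6% and 1.54% of fasted and in 32.3% and 34.0% of fed paired regions.

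H4K12bhb ended inside H3K27ac by similar lengths on the left and on the right. Its median reach past the H3K27ac edge, negative where it ends inside, was -132 bp on the left and -157 bp on the right in pool 2, and -697 and -734 bp in pool 5. In pool 2, 62.1% of edges were within 500 bp of each other, and in pool 5 37.7% were. In fed pools 1 and 4 the median reach over both sides was 122 and 164 bp, against -144 and -714 bp in fasted pools 2 and 5. Wide H4K12bhb peaks sat on wide H3K27ac peaks, with a rho of widths of 0.70 over 11470 and 0.50 over 7611 paired regions. Paired regions with an H3K4me3 peak had nearly the same width ratio as those without one, 0.87 against 0.81 in pool 2 and 0.51 against 0.46 in pool 5.

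**Figure D3:**
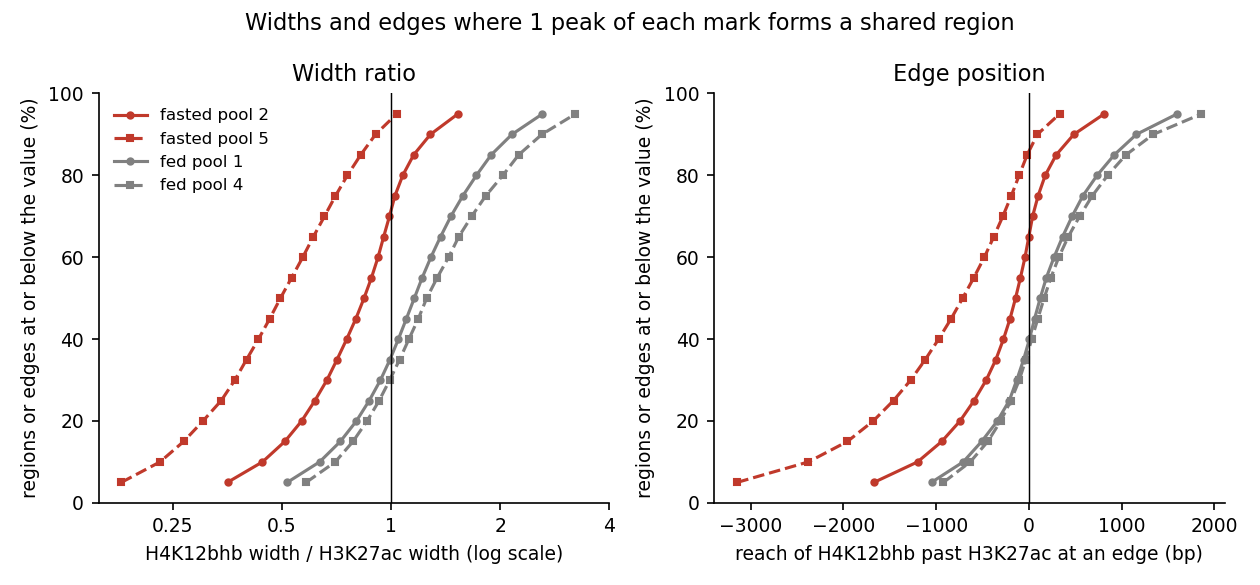
Cumulative share of paired regions by ratio of H4K12bhb to H3K27ac width (left, log scale) and of edges by the reach of H4K12bhb past H3K27ac (right, bp, negative where H4K12bhb ends inside), for fasted pools 2 and 5 and fed pools 1 and 4. Fasted curves cross 50% at ratios of 0.84 and 0.50 and fed curves at 1.16 and 1.25.

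The width ratio was also set against that between pools. For the same mark, H4K12bhb peaks of pool 2 were 1.38 times as wide as those of pool 5 in regions where each list had 1 peak, and H3K27ac peaks of pool 2 were 0.91 times as wide as those of pool 5. With pools crossed, H4K12bhb of pool 2 against H3K27ac of pool 5 gave a median ratio of 0.75, and H4K12bhb of pool 5 against H3K27ac of pool 2 gave 0.59. All 4 combinations were below 1. H3K9bhb, the same acyl group on lysine 9 of histone H3, gave ratios to H3K27ac of 0.85 in pool 2 and 0.74 in pool 5. H4K12bhb was thus about as narrow against H3K27ac as H3K9bhb was in pool 2 and narrower in pool 5, a difference with no test over pools beyond these 2 pairs.

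The ranks of the 2 marks in shared regions went together. Taking the highest-scoring peak of each mark in a region and its percentile within its list, rho was 0.73 over 17008 regions in pool 2 and 0.67 over 12103 in pool 5. In shared regions where H4K12bhb was in the lowest 10 percentiles of its list, the median H3K27ac percentile was 47.2 in pool 2 and 61.1 in pool 5. Where H4K12bhb was in the highest 10, it was 95.4 and 96.0. A strong H4K12bhb peak on weak H3K27ac was rare. Of regions above percentile 75 for H4K12bhb, 71 of 5966 in pool 2 (1.19%) and 29 of 4257 in pool 5 (0.681%) were below percentile 50 for H3K27ac. Of regions above percentile 75 for H3K27ac, 1013 of 8627 (11.7%) and 1667 of 7792 (21.4%) were below percentile 50 for H4K12bhb. Percentiles of lists of different length are not on 1 scale, so these shares are given as a description.

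Several features shared by the points bear on these correlations. Region width ran with both scores, and within shared regions of 2000 to 4000 bp, a range chosen after the data were seen, rho was 0.43 over 6668 regions in pool 2 and 0.42 over 4356 in pool 5. Both marks of a pool were also called against the same input. With pools crossed, and so with inputs that differ, rho was 0.71 for H4K12bhb of pool 2 with H3K27ac of pool 5 and 0.59 for H4K12bhb of pool 5 with H3K27ac of pool 2. The same mark in the 2 pools gave 0.68 for H4K12bhb over 12205 regions and 0.81 for H3K27ac over 23223 regions. H3K9bhb with H3K27ac gave 0.64 and 0.62 in pools 2 and 5. In shared regions with H3K4me3 the rho of H4K12bhb with H3K27ac was 0.76 and 0.65, and in those without it 0.59 and 0.50. Fed pools 1 and 4 had 0.56 and 0.38.

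H3K4me3, the promoter mark, was most frequent on regions that carried both marks. Of all merged regions, 29.8% in pool 2 and 38.4% in pool 5 had an H3K4me3 peak of the same pool. Among shared regions the share was 51.5% in pool 2 (8761 of 17008) and 68.4% in pool 5 (8277 of 12103). Among regions with H4K12bhb alone it was 8.86% and 7.32%, and among those with H3K27ac alone 13.2% and 24.4%. Shared regions averaged 59.9% ± 11.9, against 8.09% ± 1.09 with H4K12bhb alone and 18.8% ± 7.95 with H3K27ac alone (SD, n = 2 each). The differences were 51.9 and 41.1 percentage points, the classes did not overlap, and each two-sided exact permutation p was 0.333, the smallest possible. Both single-mark classes were thus below the share of all regions in both pools.

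Part of this ordering went with width. Among regions of 1000 to 2000 bp, H3K4me3 lay on 29.4% of shared regions in pool 2, against 7.22% with H4K12bhb alone and 14.7% with H3K27ac alone. In pool 5 the values were 34.3%, against 6.92% and 24.3%. The difference of shared regions from those with H3K27ac alone was 12.4 percentage points in this range, 31.3 at 2000 to 4000 bp and 41.1 over all widths. At 4000 to 8000 bp H3K4me3 lay on 60.0% of shared regions in pool 2, against 11.4% with H3K27ac alone, and on 70.8% against 26.1% in pool 5. The gap was thus smaller than over all widths among narrow regions and not among wide ones.

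Score was the other measure that went with H3K4me3. When H3K27ac peaks were compared within their own 10 score bins, those with H4K12bhb had more H3K4me3 than those without it in all 10 bins of pool 2, for example 23.3% against 16.1% in bin 5 and 62.8% against 23.3% in bin 9. In pool 5 this held in bins 1 and 2 and in bins 7 to 10, as with 78.0% against 67.1% in bin 9. The order was turned round in bins 3 to 6, as with 18.9% of H3K27ac peaks with H4K12bhb against 25.8% of those without it in bin 5. For H3K27ac peaks of middle score the pools therefore gave opposite directions.

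**Figure D4:**
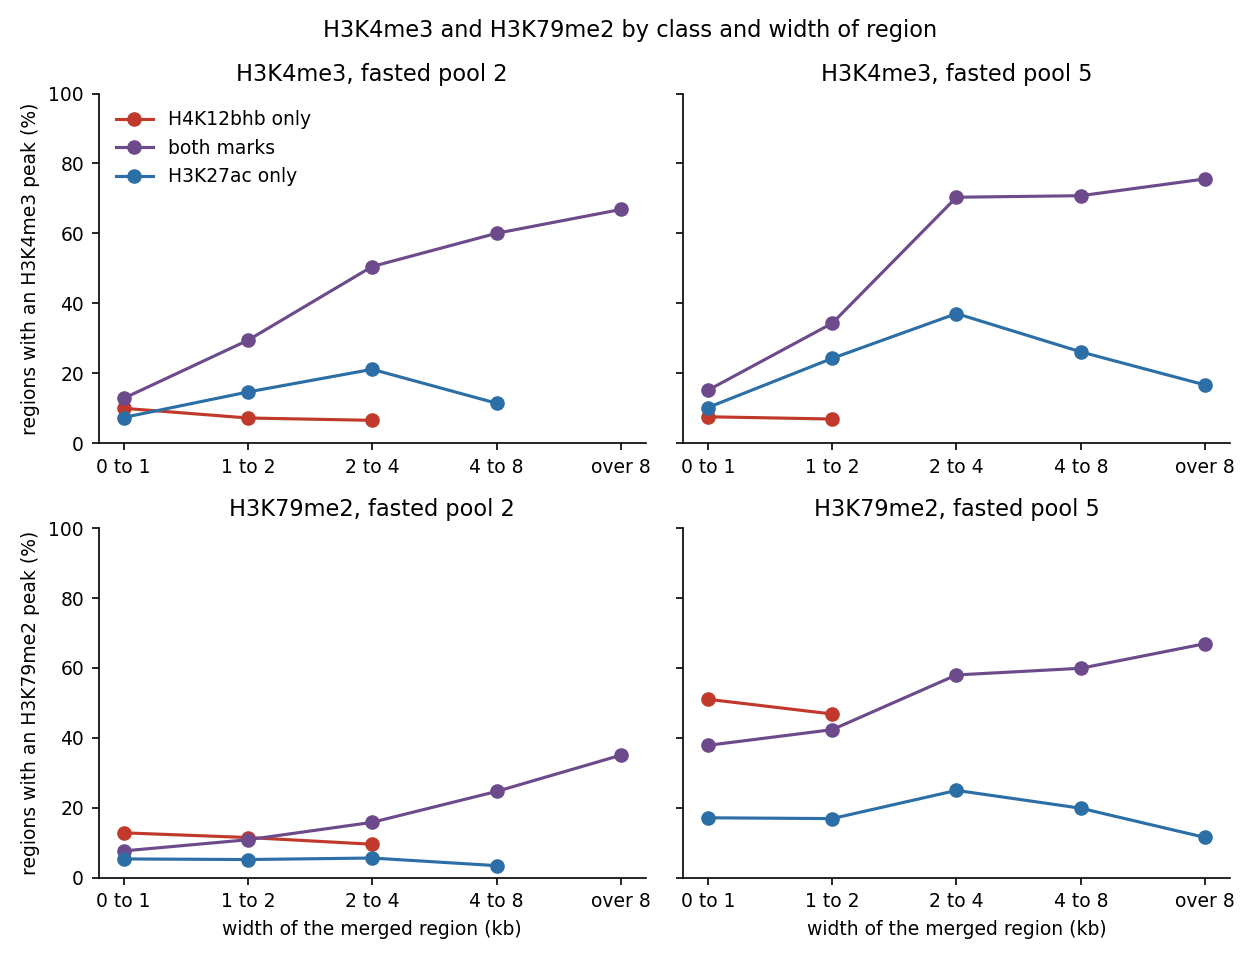
Share of merged regions with an H3K4me3 peak (upper row, %) and with an H3K79me2 peak (lower row, %) by width of the region (x axis, kb) for regions with H4K12bhb alone, both marks and H3K27ac alone, in fasted pools 2 and 5. Points with fewer than 50 regions are left out. At 1 to 2 kb, H4K12bhb alone is lowest for H3K4me3, at 7.22% and 6.92%, and at or just above shared regions for H3K79me2, at 11.5% and 46.8%.

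Seen from the promoter mark, H4K12bhb without H3K27ac was rare. Of 15079 H3K4me3 peaks in pool 2 and 18429 in pool 5, 66.3% and 49.0% touched both marks. H4K12bhb without H3K27ac was on 230 (1.53%) and 20 (0.109%) of them. H3K27ac without H4K12bhb was on 15.5% and 31.8%, and neither mark on 16.6% and 19.0%. Where both were present, H4K12bhb covered the whole H3K4me3 peak in 37.0% and 12.9% of cases and H3K27ac did so in 49.4% and 52.5%.

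H3K79me2 sorted the classes in another way. It lay on 12.6% of all merged regions in pool 2 and 33.5% in pool 5, where its list held 14129 and 31246 peaks. Regions with H4K12bhb alone carried it in 12.1% (444 of 3655) and 49.3% (607 of 1230) of cases, and regions with H3K27ac alone in 5.36% and 19.3%. Shared regions had 20.1% and 59.0%. The share with H4K12bhb alone was near that of all regions in pool 2 and above it in pool 5, and in both pools it exceeded that with H3K27ac alone. Among regions of up to 1000 bp it was 12.9% and 51.1%, against 5.41% and 17.2% with H3K27ac alone. At 1000 to 2000 bp it was 11.5% and 46.8%, against 5.23% and 16.9%. Shared regions of 1000 to 2000 bp had 10.9% and 42.4%. At 2000 to 4000 bp in pool 2, H4K12bhb alone had 9.61% (229 regions), shared regions 15.9% and H3K27ac alone 5.66%, and in pool 5 only 26 such regions had H4K12bhb alone. H4K12bhb alone was not below H3K27ac alone in H3K4me3 at every width, since up to 1000 bp its share was 10.0% in pool 2 and 7.57% in pool 5, against 7.35% and 10.2% with H3K27ac alone.

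H3K9bhb and H3K4me1 were most frequent on shared regions. H3K9bhb was on 81.8% and 88.4% of shared regions in pools 2 and 5, against 37.8% and 31.3% of those with H4K12bhb alone, 42.0% and 44.9% of those with H3K27ac alone, and 59.3% and 58.8% of all. H3K4me1 was on 43.8% and 88.8% of shared regions, 12.7% and 35.4% with H4K12bhb alone, 13.6% and 59.8% with H3K27ac alone, and 26.9% and 68.6% of all. The H3K4me1 lists of the pools held 18692 and 46499 peaks, so their levels are not comparable. The 2 repressive marks were rare on every class and did not rank the classes alike in the 2 pools. H3K27me3 was on 0.947% and 1.25% of shared regions, 1.12% and 0.407% with H4K12bhb alone, 0.879% and 2.53% with H3K27ac alone, and 0.932% and 2.03% of all. H3K9me3 touched 2 regions in pool 2 (0.00522% of all) and 34 in pool 5 (0.0932%). Its lists held only 521 and 4376 peaks, so few contacts could be found.

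At regions with H3K4me3, the edges of H4K12bhb leaned toward the side with H3K79me2 relative to those of H3K27ac. The measure is the offset between the 2 marks, so it cannot tell which mark's edge was shifted. Paired regions with H3K4me3 were taken where H3K79me2 of the same pool ran beyond the region on exactly 1 side, 696 in pool 2 and 2451 in pool 5. In pool 2, the median reach of H4K12bhb past H3K27ac was -67.5 bp on the H3K79me2 side and -291.5 bp on the other side. In pool 5 it was -482 and -1001 bp. H4K12bhb reached past H3K27ac on the H3K79me2 side in 43.8% and 17.2% of regions in pools 2 and 5, against 23.1% and 4.45% on the other side. The within-region difference of the 2 sides had a median of 243 bp in pool 2 and 477 bp in pool 5, and was toward H3K79me2 in 62.5% and 69.1% of regions.

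The lean had the same direction with the H3K79me2 list of the other pool, at 213 bp over 2789 regions for pool 2 and 420.5 bp over 680 regions for pool 5. In paired regions without H3K4me3 the median difference was 28 bp over 311 regions in pool 2 and 23 bp over 293 in pool 5. H3K9bhb against H3K27ac also leaned toward H3K79me2 at H3K4me3 regions, by 192 bp in pool 2 and 110.5 bp in pool 5. Against H3K9bhb, H4K12bhb leaned by -7 bp in pool 2 and 261 bp in pool 5. A lean of H4K12bhb beyond that of H3K9bhb was therefore seen in 1 of the 2 pools.

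**Figure D5:**
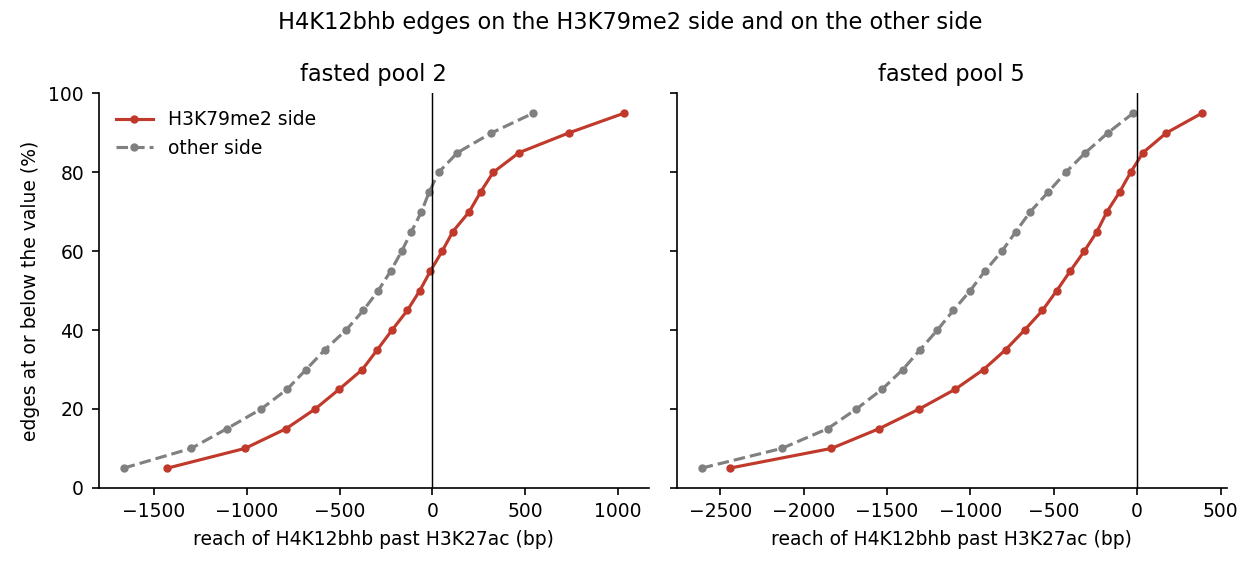
Cumulative share of edges (y axis, %) by the reach of H4K12bhb past H3K27ac (x axis, bp, negative where H4K12bhb ends inside) in paired regions with H3K4me3, on the side where H3K79me2 runs on and on the other side, for fasted pools 2 and 5. The curves cross 50% at -67.5 and -291.5 bp in pool 2 and at -482 and -1001 bp in pool 5.

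Shared regions recurred between the pools and regions with H4K12bhb alone mostly did not. Of the shared regions of pool 2, 64.3% touched peaks of both marks in pool 5, 31.4% H3K27ac alone and 3.76% neither. Of those of pool 5, 89.4% touched both in pool 2. Of the 3655 regions with H4K12bhb alone in pool 2, 219 (5.99%) touched H4K12bhb alone in pool 5, 10.6% both marks, 28.4% H3K27ac alone and 55.0% neither. Of the 1230 of pool 5, 21.6% touched H4K12bhb alone in pool 2, 15.0% both marks, 11.2% H3K27ac alone and 52.1% neither. Regions with H3K27ac alone in pool 2 touched H3K27ac alone in pool 5 in 57.5% of cases, both marks in 6.02% and neither in 35.8%. Those of pool 5 touched H3K27ac alone in pool 2 in 37.6% of cases, both marks in 24.7% and neither in 34.4%. Regions with H4K12bhb alone were also of low rank, with a median percentile of 20.4 in pool 2 and 18.0 in pool 5. For H4K12bhb in shared regions it was 62.9 and 62.2. Shared regions were wider too, with medians of 3536 and 4376 bp against 1090 and 929 bp with H4K12bhb alone, and so had more room for contact. The part of rank and width in the recurrence was not tested.

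Merging the 4 fasted lists gave 41361 regions. All 4 lists had a peak in 10151 of them (24.5%), with a median width of 5645 bp. Only both H4K12bhb lists had one in 137 (0.331%) and only both H3K27ac lists in 7206 (17.4%). A further 4415 had both H3K27ac lists and H4K12bhb of pool 2, and 748 both H3K27ac lists and H4K12bhb of pool 5. H3K79me2 of either pool lay on 43.1% of the 137 regions, on 18.2% of the 7206 and on 62.6% of the 10151, against 31.4% of all 41361 regions. H3K4me3 of either pool lay on 8.03%, 28.4% and 76.3% of the same 3 sets, against 34.4% of all. A fed H4K12bhb peak was on 17.5% of the 137 and a fed H3K27ac peak on 9.49%. For the 7206 regions the values were 24.8% and 36.7%, and for the 10151 they were 90.1% and 86.1%, against 37.9% and 41.5% of all.

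Named by the lower of their percentiles, the leading regions of all 4 lists were wide and were also present in fed crypts. The first was chr7:148511286-148531725, where the strongest H4K12bhb peaks were at percentiles 98.8 and 99.8 in pools 2 and 5, against 99.6 and 99.8 for H3K27ac. There H3K27ac was made of 2 peaks in each pool, whereas H4K12bhb was made of 2 in pool 2 and 5 in pool 5, and H3K4me3 and H3K79me2 were present in both pools. The next were chr11:98244267-98265638 and chr8:114247665-114273313, with lower percentiles of 98.7 and 98.4. After these 3 regions, 129 were tied at 97.8, because 1424 H3K27ac peaks of pool 5 (3.96% of the list) had scores of 3100 or more, most of them at 3100 itself, and the first 7 of the tied regions by position completed the 10 that were examined. All 10 had both marks in both fed pools and H3K4me3 in both fasted pools. Over the 10151 regions of all 4 lists, H3K4me3 of both fasted pools was on 67.3%. A peak of at least 1 fed pool was on 90.1% of them for H4K12bhb and 86.1% for H3K27ac. The 10 were 7735 bp wide or more, against a median of 5645 bp over the 10151.

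The 10 leading regions with only both H4K12bhb lists were drawn from 137, against 7206 with only both H3K27ac lists and 10151 with all 4. A larger set can reach higher percentiles by its size alone, so their levels are not compared between sets. The first, chr5:115371570-115378851, had an H4K12bhb peak of 7282 bp at percentile 90.9 in pool 2 and one of 2202 bp at percentile 68.9 in pool 5, with no H3K27ac peak in either. This region had H3K9bhb in both pools, H3K4me3 in pool 2 and H3K4me1 in pool 5. In fed pool 1 an H3K27ac peak at percentile 94.0 covered 87.3% of it, so the absence of H3K27ac was not found in every pool. The second, chr19:37003990-37007523, lay in H3K79me2 of both pools, within a peak of 17638 bp in pool 5. It also had H3K4me1 in both pools and H3K4me3 in pool 5. Its H4K12bhb peaks were at percentiles 50.2 and 67.6, and fed pools had neither H4K12bhb nor H3K27ac there. The third, chr4:118203149-118205481, had H3K9bhb in both pools, none of the other marks and no fed peak. Of the 10 leading regions of this set, 6 had H3K79me2 and 2 had H3K4me3 in at least 1 pool. Over the 137 regions of the set these shares were 43.1% and 8.03%, and over all 41361 regions 31.4% and 34.4%. The lowest of the ruling percentiles of the 10 was 40.3.

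The 10 leading regions with only both H3K27ac lists had ruling percentiles of 82.1 to 93.7 and widths of 3215 to 13940 bp. The first, chr3:59897354-59903547, had H3K27ac at percentiles 96.4 and 93.7 in pools 2 and 5, with H3K9bhb and H3K4me1 in both pools and no H3K4me3 or H3K79me2. The second, chr6:71128726-71140985, was 12260 bp wide and had the same 2 further marks. H3K4me1 in at least 1 pool was on all 10, H3K4me3 on 6 and H3K79me2 on 3. Over the 7206 regions of this set H3K4me1 of either pool was on 64.9%, and over all 41361 on 61.4%. For H3K4me3 these shares were 28.4% and 34.4%, and for H3K79me2 18.2% and 31.4%. H4K12bhb was called in fed crypts on 6 of the 10, against 24.8% of the 7206 and 37.9% of all regions.

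Among the 10151 regions of all 4 lists, H4K12bhb exceeded H3K27ac by more than 25 percentile points in both pools in 22, and H3K27ac exceeded H4K12bhb in 952. H4K12bhb had lower percentiles than H3K27ac in shared regions as a whole, with medians of 62.9 and 62.2 against 75.4 and 81.8, so the 2 counts are not compared. The widest lead of H4K12bhb was at chr2:91308629-91312010, at percentiles 69.93 and 78.99 for H4K12bhb, against 8.47 and 14.2 for H3K27ac. This region had H3K79me2 in pool 5 and no H3K4me3. The widest lead of H3K27ac was at chr13:5838751-5845989, with H4K12bhb at percentiles 15.8 and 12.3, against 89.2 and 86.8 for H3K27ac. There H4K12bhb peaks of 3207 and 663 bp lay in H3K27ac peaks of 6804 and 6955 bp, and in fed pools 1 and 4 H4K12bhb was at percentiles 88.9 and 23.1. H3K79me2 of either pool was on 81.8% of the 22 regions and 52.8% of the 952, and H3K4me3 on 31.8% and 69.1%, against 62.6% and 76.3% of all 10151.

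The region with the most H4K12bhb outside H3K27ac, by the smaller length of the 2 pools, was chr5:122265838-122276155. Length between H3K27ac peaks was counted too, so it is not a reach past the outer edges. H4K12bhb covered 93.5% of it in pool 2 and 71.6% in pool 5, against 28.3% and 13.7% for H3K27ac. At least 6203 bp of H4K12bhb lay outside H3K27ac in each pool. H3K9bhb and H3K4me1 were present there in both pools, H3K4me3 and H3K79me2 in neither, and fed crypts had no peak of either mark. The next were chr15:85480267-85527025 and chr7:142900278-142916646, with at least 4777 and 4543 bp of H4K12bhb outside H3K27ac, both with H3K4me3 and H3K79me2 in both pools.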

How the data were processed

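The authors deposited 1 peak list per immunoprecipitated library, with chromosome, start, end, name and score, and the deposited score is -10 times log10 of the peak caller's p, with a minimum of 50. Per the file names, peaks were called with MACS 1 without a model, each library against the input of its pool. Per the submitters' processing notes the build was mm9 and the tools were Bowtie 1.1.2, FastQC, SAMtools 1.9 and deepTools 1.5.11. For read depths and filters, the sources used here give nothing. The 4 inputs had no list. All 16 fasted lists were used, with the fed H4K12bhb and H3K27ac lists.

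The interval code ran in Python 3.11.15 with pandas 2.3.3, numpy 2.4.6 and, for tests, scipy 1.17.1. Figures were made in matplotlib 3.10.9. The code was tested on simulated data, and 6 of 6 values matched bedtools 2.31.1. A peak's percentile is its score rank within its list, with ties averaged. Two-sided exact permutation tests ran over pools. Replicates are separate pools by their labels, and no test ran over regions. The pool number in the labels pairs the marks, because both were precipitated from 1 pool, and 2 pairs are too few to check this by correlation.

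Named regions were the 10 of each of 3 sets with the highest value of their lowest percentile, the 5 with the largest rank gap in each direction and the 3 with the longest reach, of which the leading ones are given. The members, the comparisons and these rules were chosen with earlier results of these data known. The gene tables at hand were on another build than the files, so gene lists and cell type markers were not analysed here. Positions are counted from 1. Alternatives were equal numbers of top-scoring peaks for both marks, a minimum score of 100, gaps of up to 1000 bp joined, 50% of the shorter peak covered, H3K4me3 of either pool, regions of 1000 to 2000 bp, crossed pools, each pool left out and the pool as a block. Regions of 2000 to 4000 bp were added after seeing the data.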

Additional observations from a re-analysis of the deposited data

Results flagged for a closer look

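In 3 measures the fasted pools lay on one side of the neutral value and the fed pools on the other. The ratio of length covered by H4K12bhb to that covered by H3K27ac averaged 0.53 in fasted pools (0.69 and 0.37) and 1.28 in fed pools (1.12 and 1.44). The median width ratio in paired regions averaged 0.67 in fasted and 1.21 in fed pools. The share of paired regions with H4K12bhb inside H3K27ac, less the share with H3K27ac inside H4K12bhb, averaged 51.4 percentage points in fasted pools (30.5 and 72.2) and -23.1 in fed pools (-21.0 and -25.3). The exact permutation p was 0.333 for each, which is the lowest value this design can give. Each kept its direction within the file-name numbers 10 and 11, where 1 fasted pool stood against 1 fed pool. The H3K27ac lists were longer in fasted pools (37974 and 35917 peaks) than in fed pools (27640 and 15504), as were the H4K12bhb lists (26252 and 20031, against 23073 and 16560). The part of list length and depth in these contrasts was not tested.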

How the results depend on the processing

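Of 79 recalculations of 11 results, 72 stayed on the same side or within 1 SD between pools. Some of these could not come out otherwise, so the count does not measure stability. For a result judged by the SD, leaving out 1 of 2 pools moves the mean by less than 1 SD. The pool as a block left the value unchanged. The ratio of median widths, 0.83 over both pools, was 1.00 in pool 2 alone, just above equal width, 0.70 in pool 5 alone and 0.55 with equal numbers of top-scoring peaks. With equal numbers of top-scoring peaks, 84.4% of H4K12bhb peaks touched H3K27ac, 62.3% of H3K27ac peaks touched H4K12bhb and 52.0% of regions were shared, against 89.96%, 44.5% and 38.8% with the full lists. The cut to fewer H3K27ac peaks is what this setting does. With a score of 100 or more, the rank rho was 0.63, against 0.70. Among regions of 2000 to 4000 bp, 56.4% were shared and the rank rho was 0.42. The cause of the last 3 shifts was not tested. With the pool as a replicate block, the exact sign-flip p was 0.5, the smallest that 2 pairs allow, for number, length and both H3K4me3 differences, and 1 for median width, so the block changed no call. The lists carry no read totals, so what depth limits cannot be stated beyond the counting intervals, and the exact tests used cannot reach 0.05 with 2 pools a group.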

Other observations

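Some wide regions lacked a peak in 1 list only. Among 3399 regions above percentile 75 in the 3 other fasted lists, 12 had no H3K27ac peak in pool 2, with a median width of 21718 bp and a largest of 50832 bp. The same count was 1 of 3341 for H3K27ac of pool 5, 7 of 3562 for H4K12bhb of pool 2 and 74 of 4733 for H4K12bhb of pool 5, the last with a median width of 6704.5 bp. Pool 2 also had 19 regions over 8000 bp with H4K12bhb alone, whereas pool 5 had 0. The cause was not tested.

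On the X chromosome H4K12bhb had 123 and 52 peaks in fasted pools 2 and 5, which were 0.469% and 0.260% of its lists. H3K27ac had 293 and 564 peaks there, or 0.772% and 1.57%. The X share also varied among other fasted lists, with 1.58% and 2.39% for H3K4me3 and 0.164% and 0.316% for H3K9bhb. Of the regions with a peak in the H3K27ac list of pool 5 alone, 311 of 7959 (3.91%) were on the X chromosome, and of those in the H3K27ac list of pool 2 alone 14 of 6307 (0.222%). In both H3K27ac lists only, 145 of 7206 regions (2.01%) were on it, and in all 4 lists 30 of 10151 (0.296%). The cause of these differences was not tested.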
